A study of Mus musculus with 15 samples.

Results

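Expression of 10 airway secretory genes was measured in mouse lung and kidney: the secretoglobins *Scgb1a1*, *Scgb3a1* and *Scgb3a2*, the mucins *Muc5b*, *Muc5ac* and *Muc1*, the secreted BPI fold proteins *Bpifa1* and *Bpifb1*, the lectin *Reg3g* and the antibody transporter *Pigr*. They were taken by symbol from a table of 56748 genes, where each symbol has 1 entry. Club cells and goblet cells line the conducting airways and release secretoglobins, mucins and antimicrobial proteins into the fluid above the epithelium. Gel-forming mucins build the mucus layer that cilia move, tethered mucins coat the cell surface, and the polymeric immunoglobulin receptor carries IgA and IgM across the epithelium. Several of these genes are classical responses to type 2, interleukin-17 and interleukin-22 signals, and *Muc1* and *Pigr* are also made by epithelia outside the airway.

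RNA was sequenced from kidneys and lungs of wild-type male C57Bl/6 mice given an antibody that binds the hormone leptin, or control IgG, after an injury that leads to fibrosis. WTK kidneys came from mice that received vehicle, with no antibody named in the labels. IgGK and LepK kidneys came from mice injected in the peritoneum with folic acid (200 mg/kg) and then IgG or leptin antibody. The kidney mice were 10 to 12 weeks old, and their tissue was taken on day 28. IgGL and LepL lungs came from mice of 12 weeks that received bleomycin into the trachea (1.5 units/kg) and then IgG or leptin antibody, with tissue taken on day 14. Antibody and IgG were given every other day at 10 mg/kg. Each group held 3 libraries, taken as 3 mice. No uninjured lung was among the samples analysed here, so the lung values compare antibody with IgG after bleomycin and cannot show what bleomycin itself did. The study describes the lung transcriptomes as those of separate mice. For kidney neither the labels nor the methods say so, and p-values there measure only the spread between these libraries.

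Total counts ran from 25913969 to 38924788 per library. The labelled organs carried their markers: 8 proximal tubule genes summed to 12190 to 55310 CPM (counts divided by TMM-scaled library size, in units of 1e+06) in kidney and to 30.8 to 158.6 in lung, while 8 alveolar type 2 genes summed to 8513 to 30280 in lung and 2477 to 2772 in kidney. Groups were taken from the sample titles, since a free-text description beside them repeats 1 kidney name for several libraries of other groups. *Sftpc*, the defining surfactant gene of alveolar type 2 cells, was at 0 in WTK and LepK. In whole tissue, fewer cells of a type and less RNA per cell cannot be told apart. A gene was called when edgeR's quasi-likelihood test gave an adjusted p under 0.05 over all genes tested and the log2 fold change was over 0.5 in size. All 10 genes passed the filter on low counts in lung, and 3 of the 10 (*Muc1*, *Pigr* and *Reg3g*) passed it in kidney.

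Levels of the 10 genes differed by several orders of magnitude in lung, compared per gene length as FPKM (fragments scaled to gene length and library size). *Scgb1a1* was far above the rest, with a mean of 11372 FPKM in IgGL and 24430 FPKM in LepL (SD 1311 and 7881, n = 3 each). It took 0.676 to 0.856% of all counts in the IgGL libraries and 1.13 to 2.22% in the LepL libraries. *Scgb3a2* followed at 225 and 446 FPKM, and *Scgb3a1* and *Bpifa1* came next at 142 and 121 FPKM in IgGL and 127 and 110 FPKM in LepL. The libraries of *Scgb3a1* and *Bpifa1* overlapped in both groups, and in IgGL those of *Scgb3a2* overlapped with both of these genes. *Muc1* stood at 42.9 and 82.8 FPKM, *Reg3g* at 23.3 and 11.6, *Bpifb1* at 7.39 and 11.0, *Pigr* at 2.79 and 5.34 and *Muc5b* at 1.88 and 1.75 FPKM. *Muc5ac*, the gel-forming mucin that goblet cells add in allergic airways, was lowest at 0.0820 and 0.234 FPKM. The order of means was the same in both groups. In IgGL the ranges of *Muc1* and *Reg3g*, and of *Pigr* and *Muc5b*, also overlapped. In LepL those of *Reg3g* and *Bpifb1* did.

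**Figure D1:**
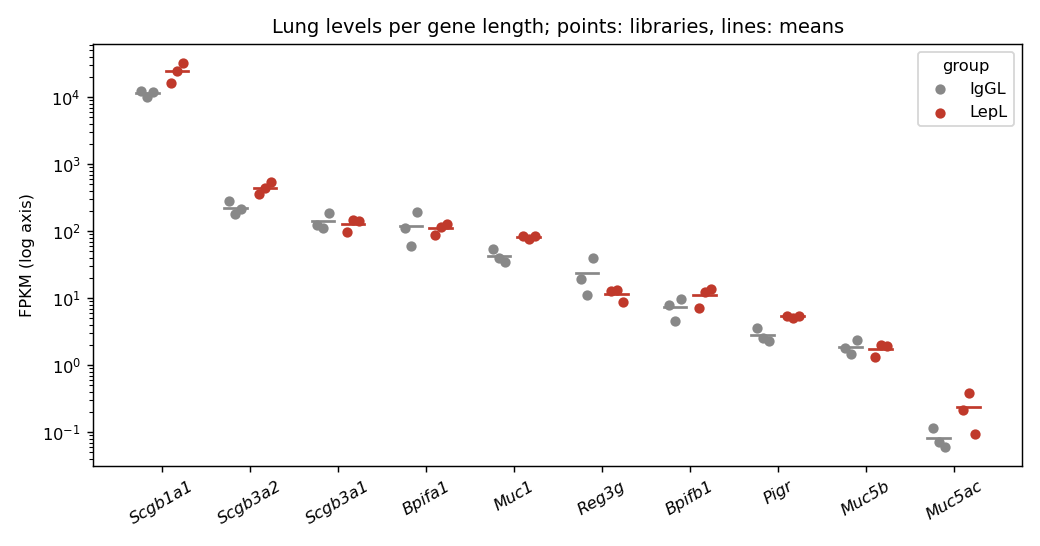
FPKM of the 10 genes on a log axis in the 3 IgGL (grey) and 3 LepL (red) lung libraries, with a line at each mean. *Scgb1a1* reaches 32124 FPKM in LepL and *Muc5ac* stays below 0.4 FPKM in every library. The LepL points lie above all IgGL points for *Scgb1a1*, *Scgb3a2*, *Muc1* and *Pigr*.

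The antibody was compared with IgG in bleomycin-treated lung to ask whether secretory genes differed with leptin neutralization. Of the 10 genes, 3 rose in LepL (*Scgb3a2*, *Muc1* and *Pigr*), where 1.78% of all 19617 genes tested were called higher. None fell, where 2.36% of all genes were called lower. At an unadjusted p under 0.05 edgeR had *Scgb1a1*, *Scgb3a2*, *Muc5ac*, *Muc1* and *Pigr* higher and 1 gene lower (*Reg3g*). Of all 19617 genes, 5357 had such a p in either direction. DESeq2 called 0 of the 10 lower. With no filter on low counts *Reg3g* was called lower. In 4 of the 10 genes every LepL library was above every IgGL library, against 16.0% of all genes tested. With IgGL replicate 2 or 3, or any 1 LepL replicate, left out, 0 of the 10 were called, and without IgGL replicate 1 there were 4. The share of all genes called in those fits is not given here. With 1 library left out the log2 fold changes ran from 0.80 to 1.12 for *Muc1*, from 0.78 to 1.10 for *Pigr* and from 0.79 to 1.12 for *Scgb3a2*.

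Of the secretoglobins, small proteins of airway fluid, *Scgb1a1* encodes the club cell secretory protein (chromosome 19, 9061000 to 9065322, minus strand; coordinates here are those of the deposited table, for which the submitters' notes name GRCm39). Its normalized CPM was 8453, 6889 and 8364 in the IgGL libraries and 11100.2, 16901 and 21800 in the LepL libraries. The groups did not overlap, and the LepL libraries were spread wider than the IgGL libraries. The log2 fold change was 1.07 (standard error 0.25) with an edgeR adjusted p of 0.0504, which missed the threshold. *Scgb3a2* (chromosome 18, 43897354 to 43900464, plus strand), which is made by club cells and their progenitors, had 352, 236 and 279 CPM in IgGL and 449, 552 and 680.2 CPM in LepL. Every LepL library was higher. It rose by 0.96 on the log2 scale (standard error 0.19, edgeR adjusted p = 0.0386). *Scgb3a1* (chromosome 11, 49554437 to 49555945, plus strand), a secretoglobin of the larger airways, had 106, 97.7 and 168 CPM in IgGL and 81.5, 125 and 120 CPM in LepL. These ranges overlapped, and the log2 fold change was -0.19 (95% interval -0.70 to 0.33, edgeR adjusted p = 0.636), which turned positive without IgGL replicate 3 (0.093). The fold of LepL over IgGL was thus 2.10 for *Scgb1a1*, 1.94 for *Scgb3a2* and 0.878 for *Scgb3a1*, of which *Scgb3a2* alone was called with TMM. With library-size or upper-quartile scaling *Scgb1a1* was called as well (log2 fold change 1.109 and 1.113).

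The gel-forming mucins lie next to each other on the plus strand of chromosome 7. *Muc5b* (141392807 to 141426821), the mucin that keeps resting airways clear, had 38.2, 32.6 and 52.9 CPM in IgGL. In LepL it had 28.7, 42.1 and 41.6 CPM. The ranges overlapped, with a log2 fold change of -0.14 (95% interval -0.60 to 0.33, edgeR adjusted p = 0.709), and its sign turned without IgGL replicate 3 (0.081) or LepL replicate 1 (0.024). *Muc5ac* (141342709 to 141372968) rested on few counts, 64, 40 and 29 in IgGL and 102, 206 and 57 in LepL. Its CPM was 1.77, 1.11 and 0.964 in IgGL and 3.33, 6.02 and 1.44 in LepL. LepL replicate 2 was the highest and LepL replicate 3 lay inside the IgGL range. The log2 fold change of 1.48 had the widest interval of the 10 genes (0.32 to 2.63, edgeR adjusted p = 0.109) and was not called. Mucins hold long repeats, and how reads that match several genes were counted is not given in the sources used here.

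*Muc1* (chromosome 3, 89136364 to 89140688, plus strand) encodes a mucin that stays in the cell membrane of airway, alveolar type 2 and tubule cells. In IgGL its CPM was 183, 136 and 120, and in LepL it was 286, 258 and 288. The LepL libraries lay close together and above all IgGL libraries. *Muc1* rose by 0.92 on the log2 scale (standard error 0.16, edgeR adjusted p = 0.0327), a 1.89-fold difference. *Pigr* (chromosome 1, 130754421 to 130779986, plus strand) had 20.6, 15.02 and 13.5 CPM in IgGL and 31.3, 29.6 and 31.2 CPM in LepL. It rose by 0.91 on the log2 scale (standard error 0.16, edgeR adjusted p = 0.0337), a 1.87-fold difference, again with no overlap. IgGL replicate 1 was the highest of its group for both genes.

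*Muc1* and *Pigr* had the most similar lung profiles among the 10 genes. Likeness was measured as the root-mean-square difference between centred log2 CPM profiles over the 6 lung libraries, for each gene against 203 others from the gene lists. *Muc1* and *Pigr* were each other's nearest gene, at 0.0318, and each profile by itself spread by 0.506 and 0.488 around its mean. *Scgb3a1* and *Muc5b* were also each other's nearest gene, at 0.0645. *Scgb3a2* was nearest to *Dynlrb2* (0.0696) and *Dnah5* (0.0871), dynein genes of motile cilia, and *Scgb1a1* to *Scgb3a2* (0.157). *Bpifb1* was nearest to the basal cell regulator *Trp63* (0.143), *Reg3g* to the cytokine gene *Il1b* (0.165), *Bpifa1* to *Aqp3* (0.246) and *Muc5ac* to the mucus protein gene *Fcgbp* (0.480). With 6 libraries that share 1 contrast these distances are descriptions.

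The promoters of *Muc1* and *Pigr* are shown because the genes had like profiles in lung and unlike ones in kidney. The 250 bases before each start site, 5′ to 3′ on the plus strand, come from RefSeq with build GRCm38.p6, which is not the build of the gene coordinates above. The *Muc1* window lies at chr3:89228806-89229055 and the *Pigr* window at chr1:130826434-130826683. Capitals mark matches on either strand to the GC box GGGCGG, to the TATA-type motif TATAAA or to the E box CACGTG.
Muc1: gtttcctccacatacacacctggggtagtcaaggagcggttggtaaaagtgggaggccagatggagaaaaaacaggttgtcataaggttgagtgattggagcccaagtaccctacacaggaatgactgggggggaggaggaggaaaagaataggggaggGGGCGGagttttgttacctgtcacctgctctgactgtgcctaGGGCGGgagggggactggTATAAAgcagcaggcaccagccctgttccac
Pigr: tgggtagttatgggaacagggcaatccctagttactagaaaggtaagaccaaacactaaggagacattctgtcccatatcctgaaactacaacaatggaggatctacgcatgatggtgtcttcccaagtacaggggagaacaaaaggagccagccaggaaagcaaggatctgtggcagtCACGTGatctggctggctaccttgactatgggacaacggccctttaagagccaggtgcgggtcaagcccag

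The *Muc1* window held 2 GC boxes, which begin 91 and 49 bases before the start, and a TATA-type match at 31 bases. The *Pigr* window held neither, and had 1 E box that begins 71 bases before the start. Of 32851 promoter windows of this length, 32.7% held a GC box, 12.4% a TATA-type match and 6.02% an E box. The E box was added to the search after the *Pigr* window had been read. Neither window held TTCNNNGAA, the palindrome that STAT factors bind (7.02% of all windows), AGGAAG, an ETS-type site (29.5%), or TGTTTNC, a FOX-type site (17.8%). Of the other genes, *Scgb3a1* and 1 of the 2 *Bpifb1* windows held the STAT-type palindrome. A match describes these letters only. Windows were found for 6 of the 10 genes, and *Scgb1a1*, *Scgb3a2*, *Muc5b* and *Muc5ac* had none.

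The BPI fold proteins are secreted by the upper airway and bind lipids and bacterial surfaces. *Bpifa1* (chromosome 2, 153984800 to 153991139, plus strand) had 250.4, 134 and 439 CPM in IgGL and 195, 253 and 278 CPM in LepL. The IgGL libraries enclosed all LepL libraries, and the log2 fold change was -0.18 (95% interval -0.98 to 0.62, edgeR adjusted p = 0.777). Its sign turned without IgGL replicate 3 (0.33). *Bpifb1* (chromosome 2, 154032738 to 154062289, plus strand) had 41.2, 24.5 and 51.5 CPM in IgGL and 36.6, 63.9 and 70.1 CPM in LepL. The groups overlapped and the difference of 0.54 was not called (95% interval -0.12 to 1.21, edgeR adjusted p = 0.268).

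*Reg3g* (chromosome 6, 78443252 to 78445855, minus strand) encodes a lectin that kills Gram-positive bacteria and is induced in epithelia during infection. Its CPM in IgGL was 58.0, 34.4 and 125, and in LepL it was 38.9, 39.7 and 26.1. IgGL replicate 3 stood above the other libraries, and IgGL replicate 2 lay inside the LepL range. The log2 fold change of -1.05 (standard error 0.40, 95% interval -1.96 to -0.15, edgeR adjusted p = 0.135) was the lowest of the 10 and was not called. Without IgGL replicate 3 it was -0.41. Its closest relative, *Reg3b*, had no count in IgGL and averaged 0.00840 CPM in LepL, and how reads were split between the genes is not given in the sources used here.

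**Figure D2:**
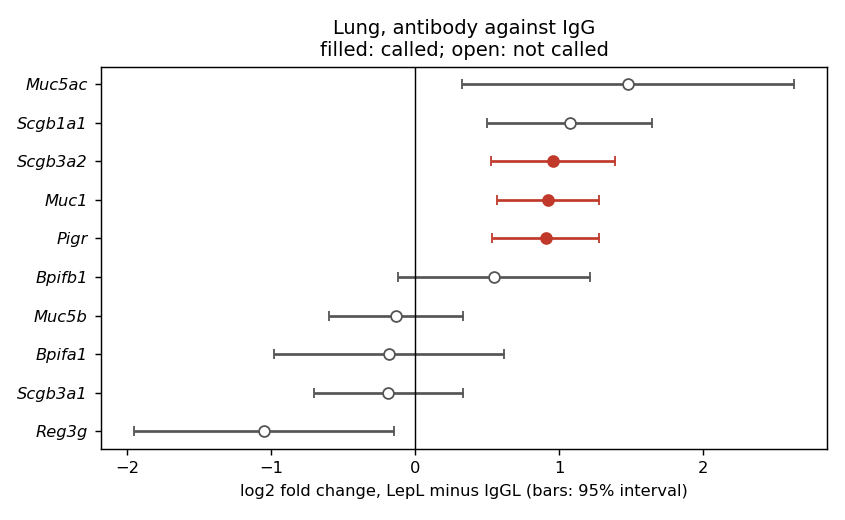
Log2 fold changes of the 10 genes in LepL minus IgGL lung, with 95% intervals from edgeR (3 libraries a group). Filled red points (*Scgb3a2* 0.96, *Muc1* 0.92, *Pigr* 0.91) were called, and open points were not. The interval of *Scgb1a1* (0.50 to 1.65) lies above 0 although its adjusted p of 0.0504 missed the threshold.

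Other genes of airway secretion in the lung are given from lists. Among 18 further club cell genes, all tested, 7 rose and 0 fell in LepL. Their median difference on the log2 scale was 0.90, with 17 of 18 above 0, beside 0.00 over all genes tested. *Chad* (log2 fold change 2.18, standard error 0.35, edgeR adjusted p = 0.0327) and *Cbr2*, a carbonyl reductase abundant in club cells (2.06, standard error 0.40, edgeR adjusted p = 0.0365), had the highest values among the called. Of 17 goblet and mucus production genes, 13 were tested, and 1 of them, the secretory pathway factor *Creb3l1*, fell (-1.15, edgeR adjusted p = 0.0499), and 0 rose (median 0.16). Of 13 other mucins, 9 were tested and 1 rose, *Muc16*, a tethered mucin that mesothelium also makes (1.35, standard error 0.18, edgeR adjusted p = 0.0327). Of 22 other secretoglobin, BPI fold and Reg genes, 4 were tested and *Scgb1c1* rose (1.59, standard error 0.27, edgeR adjusted p = 0.0327). Of 17 other host defence secretions, 15 were tested and 3 rose, among them the lysozyme gene *Lyz1* (2.29, edgeR adjusted p = 0.0386) and the surfactant collectin gene *Sftpa1* (1.37, edgeR adjusted p = 0.0337). These counts stand beside the same 1.78% higher and 2.36% lower over all genes.

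The cargo of the *Pigr* product was not called in lung. The IgA heavy chain *Igha* averaged 41.2 CPM in IgGL and 41.6 CPM in LepL, and *Ighm*, the heavy chain of IgM, averaged 170 and 307 CPM (edgeR adjusted p = 0.980 and 0.187). Of 26 genes for cytokines, receptors and factors that act on mucins, *Reg3g* or *Pigr*, 20 were tested, 2 fell and 1 rose (median -0.42). The interleukin-4 receptor *Il4ra* fell (-1.12, standard error 0.21, edgeR adjusted p = 0.0350), as did the interleukin-17 receptor *Il17ra* (-0.68, standard error 0.14, edgeR adjusted p = 0.0386), and the epithelial alarmin *Il33* rose (1.64, standard error 0.33, edgeR adjusted p = 0.0391). *Il17a* had no count in either lung group. Of 16 airway epithelial fate regulators, all tested, 4 rose and 1 fell (median 0.41). These counts and those of the cytokine list stand beside 1.78% of all genes called higher and 2.36% lower. *Nkx2-1*, the master regulator of lung epithelium, rose by 0.80 and the ETS factor *Ehf* by 0.79 (edgeR adjusted p = 0.0395 and 0.0337), and *Notch3* fell by 0.54 (edgeR adjusted p = 0.0350).

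Markers of other lung cell types moved in the same libraries. Their called counts stand beside 1.78% of all genes called higher and 2.36% lower. The 18 further club cell genes summed to 2595 to 3742 CPM in IgGL and 4237 to 7613 CPM in LepL. The 10 ciliated cell markers summed to 547.8 to 895.7 and 1019 to 1329 CPM, with 2 of 10 called higher. The 8 alveolar type 2 markers summed to 8513 to 17200 and 24160 to 30280 CPM, with 3 of 8 called higher. The 8 alveolar type 1 markers summed to 3531 to 5164 and 5822 to 6393 CPM with 0 of 8 called. The 6 basal cell markers summed to 19.7 to 51.0 and 48.4 to 139 CPM with 0 of 6 called. The 6 markers of transitional alveolar epithelium were all lower on average in LepL, with sums of 1188 to 2266 CPM in IgGL and 1006 to 1158 CPM in LepL and 1 of 6 called lower. Immune lists differed among themselves. The 8 neutrophil markers summed to 199.9 to 476.9 CPM in IgGL and 76.8 to 121 CPM in LepL, with 5 of 8 called lower, and the 8 macrophage markers to 1196 to 1876 and 821 to 1092 CPM, with 1 of 8 called lower. The 8 B and plasma cell markers overlapped, at 474.6 to 638.2 and 471.2 to 960.0 CPM, with 6 of 8 higher on average and 0 of 8 called. The 8 cartilage markers of large airways were near the detection limit, at 2.44 to 2.81 and 2.61 to 3.20 CPM. Smooth muscle markers overlapped, at 413.7 to 470.6 and 342.1 to 574.8 CPM. The part of these shifts in the *Scgb3a2*, *Muc1* and *Pigr* values was not tested.

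**Figure D3:**
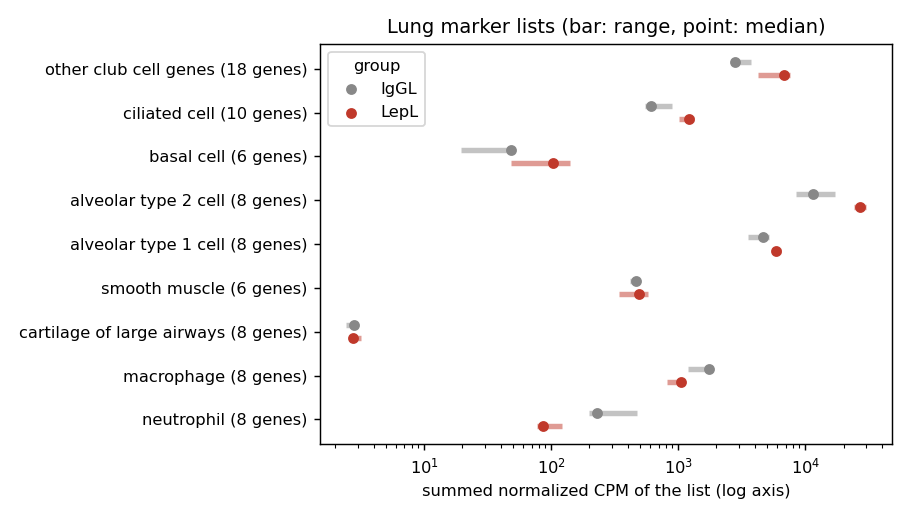
Summed normalized CPM of cell type marker lists in lung on a log axis, as the range (bar) and median (point) of the 3 libraries of IgGL (grey) and LepL (red). Club, ciliated and both alveolar lists lie higher in LepL without overlap, and neutrophil and macrophage lists lie lower. The cartilage and smooth muscle bars overlap.

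In kidney, *Pigr* and *Muc1* were the only members with a substantial level, and the airway-restricted genes were at or near 0. *Scgb3a2* and *Bpifa1* had no count in any of the 9 kidney libraries, which allows at most 0.0300 to 0.0389 CPM per group (3 counts of a group's summed TMM-scaled library sizes, counting error only). *Scgb1a1* had 2 counts in IgGK replicate 3 and none elsewhere, *Bpifb1* had 0 to 5 counts per library and *Scgb3a1* 0 to 6. None of these 5 genes was tested. The gel-forming mucins had no count in WTK. *Muc5b* had 7, 13 and 6 counts in IgGK and 10, 3 and 4 in LepK. Pooled over each group and scaled by library size, these were 6.69-fold and 5.01-fold the group floor of 3 counts in WTK. *Muc5ac* had 1 count in IgGK and 1, 14 and 8 counts in LepK, pooled 6.77-fold the WTK floor, although LepK replicate 1 alone, at 0.0329 CPM, was below it. These ratios leave out counting error and spread in IgGK and LepK. Neither passed the filter, so neither was tested, and both stayed below 0.5 CPM in every kidney library.

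Folic acid with IgG was compared with vehicle to show the injured kidney against the uninjured one. *Muc1* had 25.4, 20.3 and 23.0 CPM in WTK and 68.8, 79.9 and 72.9 CPM in IgGK. It rose by 1.69 on the log2 scale, 3.23-fold (standard error 0.11, edgeR adjusted p = 1.21e-07), with no overlap. *Pigr* had 282, 308 and 346 CPM in WTK and 183, 196 and 205 CPM in IgGK. It fell by 0.68 on the log2 scale (standard error 0.09, edgeR adjusted p = 3e-05), also with no overlap. *Reg3g* was close to the detection limit, at 0.249, 0.158 and 0.433 CPM in WTK and 0.264, 1.09 and 0.318 CPM in IgGK, and was not called (log2 fold change 0.98, 95% interval -0.54 to 2.50, edgeR adjusted p = 0.263). So 1 of the 3 tested genes rose and 1 fell, where 21.7% of all 19593 genes rose and 15.6% fell. With library size alone in place of TMM, the median of all genes moved to 0.48 in this comparison and the all-gene calls to 7803 higher and 1178 lower, from 4253 and 3057. *Pigr* was then at -0.24 and not called, which is 0.72 below that median, and *Muc1* was at 2.13, 1.65 above it.

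Antibody was compared with IgG in the folic acid kidney. *Muc1* had 59.2, 76.3 and 68.2 CPM in LepK, which overlapped IgGK, and its log2 fold change was -0.12 (95% interval -0.34 to 0.10, edgeR adjusted p = 0.445). *Pigr* had 231, 271 and 259 CPM in LepK. On this TMM scale all 3 lay above all IgGK libraries and below all WTK libraries. The log2 fold change of *Pigr* was 0.38 (standard error 0.09, edgeR adjusted p = 0.00941), under the fold threshold of 0.5 and so not called. With library size alone it was 0.21 against IgGK, where the median of all genes was -0.19. Against WTK it was then -0.035, with a median of 0.29, so the place of LepK between the groups depends on the scaling. *Reg3g* had 0.560, 0.201 and 0.332 CPM in LepK and a log2 fold change of -0.61 (95% interval -2.08 to 0.86, edgeR adjusted p = 0.583), which turned positive without IgGK replicate 2 (0.32). Thus 0 of the 3 genes were called, where 4.38% of all genes were called higher and 5.99% lower. At an unadjusted edgeR p under 0.05 there was 1 (*Pigr*), where 6441 of all 19593 genes had such a p in either direction. DESeq2 called 0 of the 3. Against WTK, with which IgGK was also compared, *Muc1* was still 1.57 higher on the log2 scale in LepK (standard error 0.11, edgeR adjusted p = 1.54e-06). *Pigr* was at -0.30 (standard error 0.09, edgeR adjusted p = 0.0169), again under the fold threshold, and *Reg3g* at 0.37 (edgeR adjusted p = 0.728). There 15.2% of all genes were called higher and 7.30% lower.

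**Figure D4:**
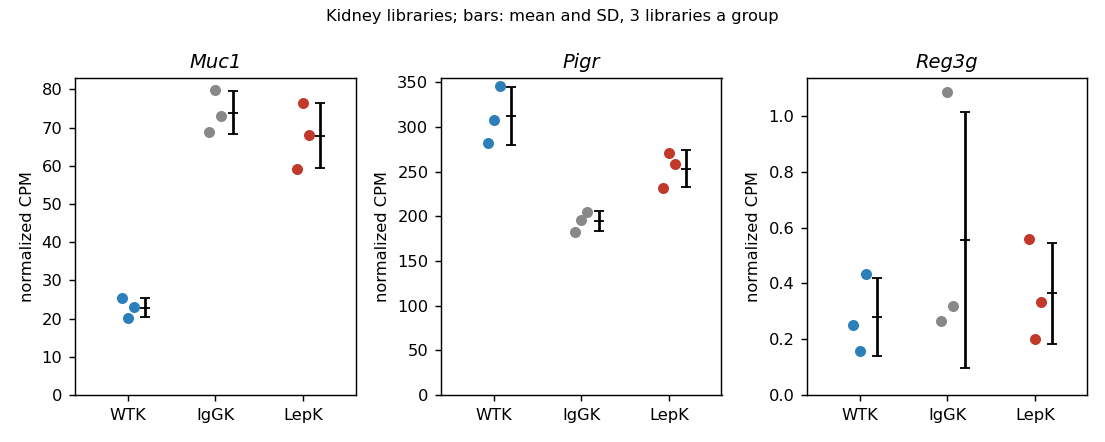
Normalized CPM of *Muc1*, *Pigr* and *Reg3g* in the 9 kidney libraries (points), with the mean and SD of 3 libraries beside each group. *Muc1* lies at 20.3 to 25.4 CPM in WTK and at 59.2 to 79.9 CPM in both folic acid groups. *Pigr* is highest in WTK, lowest in IgGK and between them in LepK, and *Reg3g* stays near or below 1 CPM.

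Over the 9 kidney libraries *Muc1* and *Pigr* did not share a profile. *Muc1* was nearest to the epithelial ETS factor *Elf3* (0.107), to *Ager* (0.113) and to the keratin gene *Krt18* (0.125), and *Pigr* to the growth factor receptor *Egfr* (0.161) and the distal tubule kinase *Wnk4* (0.162), out of 179 genes. *Elf3* rose by 1.76 in IgGK against WTK (edgeR adjusted p = 4.66e-08), and *Wnk4* averaged 282 CPM in the vehicle group, 183 in IgGK and 279 in LepK. The per-length level of *Pigr* was 64.1, 38.9 and 51.6 FPKM in WTK, IgGK and LepK, above that of *Muc1* at 8.06, 25.4 and 23.7 FPKM in each group. In lung the order was the reverse. *Pigr* reached at most 5.46 FPKM in any lung library, and at least 36.7 FPKM in every kidney library. IgA was also more abundant in kidney, where *Igha* averaged 1809 CPM in the vehicle group, 1922 CPM after folic acid with IgG and 2380 CPM with antibody. It was not called in any kidney comparison (edgeR adjusted p = 0.757 for IgGK against WTK, 0.358 for LepK against IgGK and 0.171 for LepK against WTK). *Ighm* rose in IgGK against WTK (1.30, edgeR adjusted p = 0.0186).

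Several tubule marker lists moved beside *Pigr* and *Muc1*. The 8 collecting duct markers overlapped between WTK (1079 to 1222 CPM) and IgGK (960 to 1137 CPM), and summed to 1327 to 1683 CPM in LepK. The 8 loop of Henle and distal tubule markers summed to 3921 to 4076 CPM in WTK, 2678 to 3089 in IgGK and 3817 to 4267 in LepK. The 8 proximal tubule markers summed to 52740 to 55310, 12190 to 19780 and 26790 to 37130 CPM. The 9 injured tubule markers, among them *Havcr1* and *Krt18*, summed to 395.5 to 425.7, 1629 to 1787 and 1039 to 1236 CPM. The 8 urothelium markers summed to 28.98 to 37.83, 119.5 to 155.7 and 83.1 to 110 CPM. The 8 neutrophil markers summed to 2.88 to 3.70, 25.2 to 36.3 and 10.04 to 12.2 CPM. The part of these shifts in the *Pigr* and *Muc1* values was not tested.

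The lists of related genes were also compared in kidney, first between IgGK and WTK, which differ in folic acid and in the IgG named for IgGK only. Of 18 further club cell genes, 8 rose and 7 fell in IgGK against WTK (median log2 difference 0.51, beside 0.04 over all genes). These and the next counts stand beside 21.7% of all genes called higher and 15.6% lower. The channel subunit *Gabrp* rose by 6.54 and the mucosal chemokine *Cxcl17* by 5.15 (edgeR adjusted p = 1.21e-06 and 0.00105). *Cxcl17* was near the detection limit in WTK, at 0.0277 CPM, and averaged 1.07 CPM in IgGK. *Selenbp1* fell by 1.61 (edgeR adjusted p = 5.15e-07), and *Cyp4b1*, which the kidney makes at high level, fell from 5605 to 1030 CPM (log2 fold change -2.44, edgeR adjusted p = 8.74e-07). Of 8 other mucins tested, 6 rose and 0 fell (median 1.27), among them the tethered mucin *Muc4* (4.21, standard error 0.44, edgeR adjusted p = 4.7e-06). *Mucl1* had no count in WTK and averaged 2.01 CPM in IgGK. *Mucl1* and *Muc16* (0.0240 CPM in WTK) passed the low-count filter only through the folic acid groups. They could hardly be called lower, so the counts of other mucins lean toward higher in both comparisons with WTK. The same holds for *Cxcl17*, *Spdef* and *Sftpd* (0.0277, 0.0649 and 0.0656 CPM in WTK) in their lists. *Lbp*, the lipopolysaccharide binding protein and the 1 tested gene of the other secretoglobin, BPI fold and Reg list, rose by 1.88 (edgeR adjusted p = 2.27e-05). Of 11 other host defence secretions tested, 8 rose and 0 fell (median 1.35), led by the siderophore binder *Lcn2* (5.25, edgeR adjusted p = 7.61e-09) and *Lyz1* (5.21, edgeR adjusted p = 1.13e-08). Among 9 goblet and mucus production genes tested, 3 rose, including the goblet cell regulator *Spdef* (from 0.0649 to 0.417 CPM, edgeR adjusted p = 0.0113) and the mucin glycosyltransferase *Gcnt3* (2.18, edgeR adjusted p = 0.00163), and the trefoil factor *Tff1* fell (-2.95, edgeR adjusted p = 0.0045). Among 21 genes of the cytokine list tested, 11 rose, including *Socs3* (3.33, edgeR adjusted p = 7.61e-09) and *Tnf* (3.08, edgeR adjusted p = 0.00025), and 2 fell, the interleukin-22 receptor *Il22ra1* (-1.35, edgeR adjusted p = 0.00661) and *Egfr* (-0.55, edgeR adjusted p = 1.94e-05). Of 13 fate regulators tested, 9 rose and 0 fell, with *Sox9* (4.93, edgeR adjusted p = 2.86e-08) and *Foxa1* (2.79, edgeR adjusted p = 5.94e-06) highest.

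In LepK against IgGK the list counts stand beside 4.38% of all genes called higher and 5.99% lower. Among the host defence secretions 4 of 11 fell, including the collectin *Sftpd* (-2.22, edgeR adjusted p = 0.0207) and *Lyz2* (-1.47, standard error 0.18, edgeR adjusted p = 0.00038), and 0 rose. *Sftpd* was low in both groups, at 1.13 CPM in IgGK and 0.239 CPM in LepK. In the cytokine list 5 of 21 fell, including *Il1b* (-1.46, edgeR adjusted p = 0.00744) and *Socs3* (-0.84, edgeR adjusted p = 0.00041), and 0 rose. The other mucins had 0 of 8 called, and the most abundant of them, *Emcn* and *Muc20*, were at 0.30 and 0.24 (edgeR adjusted p = 0.00796 and 0.293). *Lbp* and *Sox9* fell by 0.77 and 1.06 (edgeR adjusted p = 0.0284 and 0.00197), *Sox9* as the 1 of 13 fate regulators called. Of the club cell genes 5 of 18 rose, including *Cyp4b1* (1.04, standard error 0.20, edgeR adjusted p = 0.00327) and *Cyp2a5* (0.99, edgeR adjusted p = 0.00149), and *Upk3a* fell (-0.73, edgeR adjusted p = 0.0240). With library size alone the club cell list had 3 higher and 3 lower, and its median went from 0.31 to 0.14. On that scale 408 of all 19593 genes were called higher and 2185 lower, and the median of all genes was -0.19. *Fcgbp*, which binds mucins and IgG, rose by 1.38 (standard error 0.27, edgeR adjusted p = 0.00386). The IgGK libraries are shared between this comparison and that with WTK. In LepK against WTK, 8 of the club cell genes rose and 4 fell, 4 other mucins rose and 0 fell, 7 host defence genes rose and 1 fell, 10 cytokine genes rose and 1 fell, 7 fate regulators rose and 0 fell, and 3 goblet genes rose and 0 fell, beside 15.2% of all genes called higher and 7.30% lower. There *Gabrp* rose by 5.45, *Cxcl17* by 3.38, *Gcnt3* by 2.08, *Galnt12* by 0.85, *Muc16* by 3.84 and *Lbp* by 1.11. *Cxcl17* and *Muc16* were near the detection limit, at 0.0277 and 0.0240 CPM in WTK and 0.312 and 0.423 CPM in LepK (standard errors 1.13 and 0.98). *Lyz1* rose by 4.17, *Lcn2* by 3.88, the growth factor *Areg* by 2.80 (from 0.103 to 0.745 CPM), *Tnf* by 2.58, *Sox9* by 3.87 and *Foxa1* by 2.28. *Mucl1* averaged 1.45 CPM in LepK. *Cyp4b1* fell by 1.41, *Cckar* by 0.89, the oxidase *Duox1* by 2.34 (from 0.606 to 0.119 CPM) and *Il22ra1* by 1.62. The edgeR adjusted p of all these genes was between 1.48e-07 and 0.0469. The joining chain *Jchain* was at 0.28 in LepK against IgGK and 0.35 in LepK against WTK, and was not called (edgeR adjusted p = 0.368 and 0.182).

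The antibody effect was then set against itself in the 2 organs, for the 3 genes tested in both. *Muc1* differed: its effect in kidney was 1.01 lower on the log2 scale than in lung (standard error 0.20, 95% interval -1.44 to -0.59, edgeR adjusted p = 0.0160), where 7.12% of all 21488 genes were called in either direction. For *Pigr* the difference was -0.49 (95% interval -0.88 to -0.11, edgeR adjusted p = 0.106), and for *Reg3g* it was 0.46 (-1.55 to 2.46, edgeR adjusted p = 0.812), and neither was called. Organ, injury and day differ together here and cannot be told apart.

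**Figure D5:**
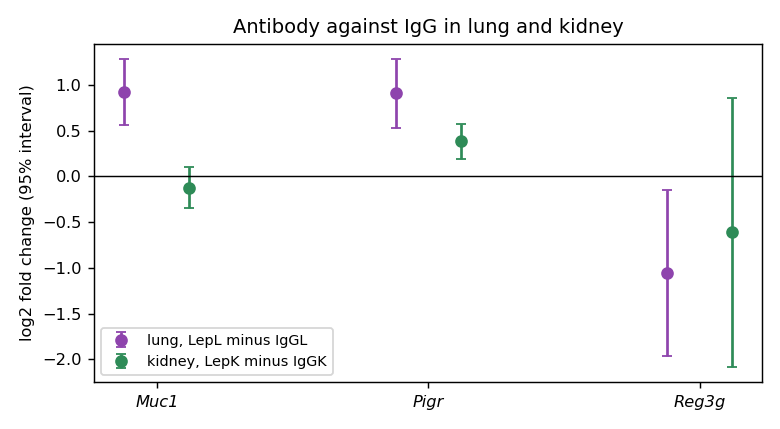
Log2 fold change of antibody against IgG in lung (purple, LepL minus IgGL) and kidney (green, LepK minus IgGK) for the 3 genes tested in both, with 95% intervals. *Muc1* is at 0.92 in lung and -0.12 in kidney, *Pigr* at 0.91 and 0.38, and the *Reg3g* intervals are wide.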

How the data were processed

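Counts of 15 libraries were analysed. The authors deposited whole-number read counts per gene from non-directional poly(A) libraries, made by their sequencing provider. FPKM values were deposited beside them, and the tool that made them is not given in the sources used here. The submitters' processing notes name GRCm39 (mm39) and DESeq2, and the aligner and the counter are not given in the sources used here. The authors' group means, log2 fold changes and p-values are also in the table and were not used. Counts were tested with edgeR 4.0.16 in R 4.3.3 (TMM, filterByExpr with a minimum count of 10 and a minimum total of 15, quasi-likelihood F test, Benjamini-Hochberg). The lung fit held 6 libraries, the kidney fit 9 and the fit over injured organs 12. CPM values use TMM library sizes of the organ's fit, and FPKM was used only to compare levels between genes. Scripts were tested on simulated data. Alternatives used DESeq2 1.42.0, other scalings and filters, a replicate block and leaving out each library. The 10 genes, the gene lists and the tests were chosen with earlier results of these data known. In every comparison all 10 genes are named, and from each pathway list up to 2 called genes with the largest positive and 2 with the largest negative fold change, or, where none was called, the 2 with the highest mean. A few list genes outside this rule, such as *Il17a*, *Reg3b* and *Upk3b*, were named after their values were seen. No gene of the table overlaps any of the 10 genes. Replicates of a group differed by far more than sampling noise (chi-square per gene 6.73 to 87.4). A single count was worth 0.0252 to 0.0415 CPM.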

Additional observations from a re-analysis of the deposited data

Results flagged for a closer look

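*Muc1* was marked because a direct test of the difference between organs was passed: antibody against IgG in kidney, less the same contrast in lung, gave -1.01 on the log2 scale (edgeR adjusted p = 0.0160). In lung all 3 LepL libraries (258 to 288 CPM) lay above all IgGL libraries (120 to 183 CPM), and in kidney LepK (59.2 to 76.3 CPM) overlapped IgGK (68.8 to 79.9 CPM). The difference was called under each of 20 alternatives, with values from -1.25 to -0.92 and adjusted p from 3.64e-06 to 0.0487. With library size alone the median of all genes moved to -0.25 and *Muc1* was at -1.25. Organ, injury and day differ together and cannot be told apart.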

How the results depend on the processing

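Over the gene-level alternatives, 324 values kept their direction and side of the threshold, 23 lost and 15 gained a call, and 8 changed sign. In LepL against IgGL the 3 calls became 5 with DESeq2 (*Scgb1a1* and *Muc5ac* added) and 7 with no filter on low counts, among them *Reg3g* as lower. They became 0 above a log2 fold change of 1, and 0 to 4 with 1 library left out. *Scgb1a1* was also called with library-size and upper-quartile scaling. There 303 and 386 of all 19617 genes were called higher, and 361 and 364 lower. Shares of all genes are not given here for DESeq2, other filters and thresholds, left-out libraries or the fit of 15 libraries. Counts under those alternatives cannot be set against a background. The replicate block gave 0 (adjusted p 0.0764 to 0.0844 for the 3 genes), and 4 calls over all genes. Correlations of deviations between replicates of the same number were -0.0482, 0.116 and -0.0968 in lung. They were 0.227, 0.215 and -0.0487 in LepK against IgGK, and -0.0362 to 0.058 in the other kidney comparisons. With 3 libraries a group these values cannot show whether replicate numbers pair the samples. The block changed no other call of a member. In IgGK against WTK the 2 calls became 1 with library-size scaling and 1 at the stricter threshold. For LepK and IgGK the 0 calls became 1 with no fold threshold or with all 15 libraries in 1 fit. In LepK against WTK the 1 call became 3 with no filter, 2 with no fold threshold and 3 with all 15 libraries. With library-size scaling 249 of all 21488 genes were called higher in kidney minus lung and 1968 lower. For kidney minus lung the 1 call became 2 with library-size scaling or no filter, and was 1 to 2 with 1 library left out (2 without IgGL replicate 1). The cause was not tested. The sign changes all came from leaving out 1 library: in lung *Scgb3a1* ranged from -0.33 to 0.093, *Muc5b* from -0.28 to 0.081 (0.024 without LepL replicate 1) and *Bpifa1* from -0.51 to 0.33. *Reg3g* ranged from -1.05 to 0.32 in LepK against IgGK, from -0.080 to 0.83 in LepK against WTK and from -0.22 to 1.40 in kidney minus lung (-0.05 without LepK replicate 1). In kidney 7 of the 10 genes had too few counts to be tested, and *Reg3g* there and *Muc5ac* in lung rested on few counts.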

Other observations

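*Upk3b*, a uroplakin that mesothelium is also known to make, rose in LepL lung beside *Muc16* (log2 fold change 1.46, edgeR adjusted p = 0.0327), from 68.9 to 190 CPM on average.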
